A study of Mus musculus with 64 samples.

Results

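The 141 ribosomal protein pseudogenes described here are the genes whose symbol is that of a cytosolic ribosomal protein followed by -ps and, in most cases, a number, and that reached at least 10 counts in at least 4 of the 64 libraries. They were 141 of 300 genes with such a symbol and of 55487 genes in all, and 159 matching symbols stayed below the minimum. The libraries were bulk RNA-seq of bone marrow-derived macrophages (BMMs), differentiated for 6 days in medium conditioned by L929 fibroblasts from 4 female wild-type (Ahr+/+) C57BL/6JRj mice and 4 mice lacking the aryl hydrocarbon receptor (Ahr-/-, back-crossed in-house from Jackson animals) aged 8 to 12 weeks. BMMs of each genotype received 0.01 % DMSO (vehicle), 1 µM benzo[a]pyrene (BaP) or 10 µM indole-3-carbinol (I3C) for 6 h and were then activated for 3 h or 20 h with 10000000 bacteria per ml of a heat-killed Enteritidis serovar of Salmonella enterica (hk S.E.), and DMSO-treated BMMs without hk S.E. were collected at both times. That gave 16 groups of 4 libraries, and every ligand-treated group also received hk S.E. The comparisons address how hk S.E. and the AhR ligands changed these transcripts and whether AhR was needed.

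Ribosomal proteins form the large and small subunits of the ribosome, and their genes are among the most highly transcribed in any cell. Their abundant mRNAs have been copied back into the genome many times, which left intronless processed pseudogenes beside each multi-exon parent gene. Such copies keep most of the parent's sequence, so a short read from the parent and a read from the pseudogene can be hard to separate.

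Of the 141 members, 85 carried the name of a large-subunit and 56 of a small-subunit protein. They named 49 parents, all found in the count files, with Rpl31 having the most copies (11) and 17 parents having 1. The annotation classed 132 as processed pseudogenes, 5 as transcribed processed pseudogenes and 4 (Rpl10-ps3, Rpl36a-ps1, Rpl9-ps6 and Rps12-ps3) as protein-coding, and 137 had a single exon. They lay on 20 chromosomes, 14 inside a coding gene on the same strand and 29 opposite one. Median identity to the parent's mRNA over the aligned bases was 98.7 %, from 87.5 % to 100 %. The 14 members at 100 % are called identical below, although unaligned ends do not count in this measure. For 13 members every window with the length of 1 sequencing read occurred letter for letter in the parent, and for 39 members no such window did. Rpl18-ps1 was 63.5 % identical to Rpl18 and was left out of the identity classes and of this range. For members with most windows in the parent, a count cannot be assigned with confidence to one of the genes.

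Read-length windows from 4 members and their parents are shown as examples. Each is the gap-free window within the parent's coding sequence that held the most differences. The windows do not rank the members as the identity used below does, because that identity covers the whole alignment and counts gaps. By that identity Rpl21-ps6 was 93.8 %, Rpl10-ps2 96.7 % and Rpl19-ps12 96.3 % identical to the parent. The sequences are from the GENCODE transcripts of GRCm38 (mm10), written 5′ to 3′ on the transcribed strand, and capitals mark the bases that differ within a pair. The windows of Rpl21-ps6 (chr17:55915745-55915870, minus strand) and of Rpl21 (gene at chr5:146832890-146837032, plus strand; starting at coding base 1) differed at 3 bases, those of Rpl10-ps2 (chr8:106927996-106928121, minus) and Rpl10 (chrX:74270812-74273135, plus; starting at coding base 293) at 10, and those of Rpl19-ps12 (chrX:6071408-6071533, plus) and Rpl19 (chr11:98026710-98030492, plus; starting at coding base 184) at 7. These 3 members were called lower with I3C.
Rpl21-ps6: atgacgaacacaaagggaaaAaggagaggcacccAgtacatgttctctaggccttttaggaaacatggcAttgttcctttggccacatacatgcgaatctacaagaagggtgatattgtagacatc
Rpl21: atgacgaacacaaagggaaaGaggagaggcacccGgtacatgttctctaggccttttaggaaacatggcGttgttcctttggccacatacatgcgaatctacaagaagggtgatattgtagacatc
Rpl10-ps2: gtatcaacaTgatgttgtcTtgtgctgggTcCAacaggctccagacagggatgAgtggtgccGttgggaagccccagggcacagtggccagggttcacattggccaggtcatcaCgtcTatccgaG
Rpl10: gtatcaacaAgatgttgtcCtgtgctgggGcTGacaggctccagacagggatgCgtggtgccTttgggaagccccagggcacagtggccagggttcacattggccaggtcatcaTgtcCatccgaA
Rpl19-ps12: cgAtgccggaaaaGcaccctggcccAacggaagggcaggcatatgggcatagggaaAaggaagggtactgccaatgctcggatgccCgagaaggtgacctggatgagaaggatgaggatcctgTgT
Rpl19: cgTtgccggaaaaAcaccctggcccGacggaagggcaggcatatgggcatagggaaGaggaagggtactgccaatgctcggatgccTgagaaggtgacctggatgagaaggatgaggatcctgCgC

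The window of Rpl10a-ps1 (chr1:64994479-64994604, minus strand) and the start of the coding sequence of Rpl10a (gene at chr17:28328471-28331033, plus) were the same, as was the rest of this pseudogene, so it is shown once as an example of the identical copies.
Rpl10a-ps1: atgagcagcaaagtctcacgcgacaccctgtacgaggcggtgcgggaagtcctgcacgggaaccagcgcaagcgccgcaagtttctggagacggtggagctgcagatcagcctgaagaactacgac

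The libraries held 12152496 to 233047331 counts on genes (median 24499165), of which 5741 to 202029 fell on the members. Pairs that the counter set aside for low alignment quality were 0.831 to 5.63 % of a library, and pairs aligned to several places were 12.4 to 15.8 %. All 7 macrophage markers (Adgre1, Itgam, Csf1r, Cd68, Mertk, Fcgr1 and Lyz2) were detected in every library, and the neutrophil markers Ly6g, Mpo and Elane had a median of 0 CPM (counts scaled to library size). Ahr counts did not fall in the libraries labelled Ahr-/- (median 12.9 CPM against 7.25 in Ahr+/+), so they do not check the label. Ahrr, a feedback repressor induced by AhR, rose with BaP in Ahr+/+ at 3 h (log2 fold change 3.36) and not in Ahr-/- (−0.33), and this difference passed edgeR's test (adjusted p = 2.04e-04).

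Most members were expressed at low levels. The mean over the 64 libraries, in TMM-normalized CPM, ran from 0.135 to 94.0 with a median of 1.43, and the median member received 4.59 counts per 1000 counts of its parent. The 10 highest held 52.5 % of the members' CPM. Rpl14-ps1 was first with 94.0 ± 24.6 CPM (SD, n = 64 libraries), followed by Rpl23a-ps3 with 43.6 ± 9.91 CPM, Rpl3-ps1 with 29.4 ± 7.19 CPM and Rps10-ps2 with 22.1 ± 8.73 CPM. Rps6-ps4, an identical copy of the gene for the small-subunit protein phosphorylated by S6 kinases, had 20.6 ± 6.34 CPM. The others of the 10 were Rpl21-ps15, Rps16-ps2, Rpsa-ps10, Rps10-ps1 and Rpl36a-ps2 with 13.4 to 17.8 CPM.

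Per kb of exon, 138 of the 141 members lay below their parent. The 3 exceptions were Rpl14-ps1, with 143.9 CPM per kb against 125.1 for Rpl14, Rps10-ps2, with 44.5 against 28.6 for Rps10, and Rpl21-ps15, with 36.9 against 23.1 for Rpl21. These 3 were 98.9, 99 and 99.4 % identical to their parents, and 55.7, 72.0 and 58.7 % of their windows occurred in the parent. Within those shared windows, reads of the parent and of the pseudogene cannot be told apart. Exon length was taken over all annotated transcripts of a gene together. For a multi-exon parent this can exceed the length of its mRNA and lower its value per kb. Whether the 3 exceptions hold with another length was not tested. At the edge of the rule, Rpl35a-ps2 reached 10 counts in 6 libraries and Rpl31-ps1 in 4, while Rps12-ps24 and Rpl30-ps3 reached it in 3 and were not members.

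**Figure D1:**
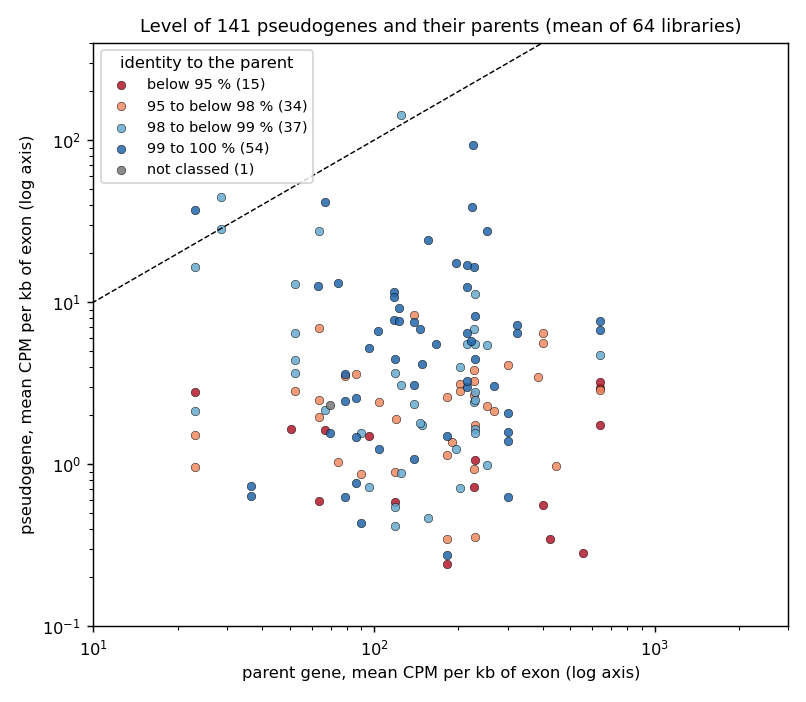
Mean CPM per kb of exon of each of the 141 members (y axis, log) against that of its parent (x axis, log) over 64 libraries, coloured by identity to the parent, with a dashed line of equal level. 138 points lie below the line and Rpl14-ps1, at 143.9 against 125.1, is the highest point.

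The expression of 140 members could be tested (Rpl35a-ps2 was too low) in edgeR's quasi-likelihood model of all 64 libraries and 14537 genes, in which a gene was called at a Benjamini-Hochberg adjusted p below 0.01. In 28 comparisons 39 members were called in at least 1, and Rpl21-ps6 was called in the most, 5. The members called with a ligand were all lower and 93.8 to 99.2 % identical to the parent, and no parent of theirs was called there. After 20 h of hk S.E. in Ahr+/+, most called members had a parent that was called as well.

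The largest number of members called with a ligand was with I3C in Ahr+/+ BMMs. In activated Ahr+/+ BMMs at 3 h, 3 of 140 members were called lower with I3C than with DMSO and 0 higher, beside 0.117 % of all genes tested lower and 0.0138 % higher. At 20 h, 6 members were called lower and 0 higher, beside 0.461 % and 0.0482 %. In Ahr-/- BMMs at 20 h 1 member was called lower, beside 0.206 % lower and 0 % higher of all genes. In Ahr-/- BMMs at 3 h 0 members were called, beside 0.0206 % of all genes. There, 57 members had an unadjusted p under 0.05 in edgeR, and DESeq2 and limma called 1 each. Here and below, counts at an unadjusted p or under an alternative stand without the share of all genes. Such counts do not set the members apart. None of the 78 cytosolic ribosomal protein genes was called in any of these 4 comparisons.

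Rpl21-ps6, a copy of the gene for a large-subunit protein, 93.8 % identical to Rpl21, gave the clearest case. At 3 h in Ahr+/+ its level was 1.69, 1.58, 2.21 and 2.26 CPM with DMSO and 0.221, 0.318, 0.401 and 0.524 CPM with I3C, which rested on 24 to 35 counts and on 3 to 10 counts per library. All 4 I3C libraries lay below all 4 DMSO libraries, and the log2 fold change was −2.36 ± 0.39 (SE; edgeR, adjusted p = 4.05e-04). Rpl21 itself had 85.5, 90.5, 91.1 and 94.9 CPM with DMSO and 88.0, 85.4, 92.0 and 96.7 CPM with I3C, which overlapped.

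At 20 h in Ahr+/+, Rpl21-ps6 had 0.853, 0.747, 1.35 and 1.51 CPM with DMSO and 0.233, 0.0826, 0.264 and 0.0998 CPM with I3C. The groups again did not overlap (log2 fold change −2.74 ± 0.40 SE, edgeR, adjusted p = 8.73e-06). In Ahr-/- at 20 h the DMSO libraries had 1.96, 1.72, 1.32 and 1.60 CPM and the I3C libraries 1.25, 0.496, 0.247 and 0.230 CPM. I3C replicate 1 stood above the other 3 there but below every DMSO library (log2 fold change −1.64 ± 0.32 SE, edgeR, adjusted p = 0.00284). In Ahr-/- at 3 h the levels were 1.74, 1.92, 1.76 and 1.60 CPM with DMSO and 0.848, 0.466, 0.726 and 0.308 CPM with I3C, without overlap, but the gene was not called (log2 fold change −1.61 ± 0.35 SE, edgeR, adjusted p = 0.0362). The test of the difference between the genotypes called 0 members with I3C at 3 h and 20 h, beside 0 % of all genes. At an unadjusted p under 0.05 edgeR had 1 and 3 members, and DESeq2 and limma called 0. The same edgeR test did not call Ahrr with I3C at 3 h (log2 fold change 1.77 ± 0.52 SE). Nor did it at 20 h (1.63 ± 0.30 SE, adjusted p = 0.0155). Because even Ahrr was missed, the 0 calls do not decide whether the I3C difference was alike in both genotypes.

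BaP was the other AhR ligand. With BaP in Ahr+/+ the levels of Rpl21-ps6 were 1.47, 1.41, 2.17 and 2.14 CPM at 3 h and 1.03, 1.05, 0.955 and 0.716 CPM at 20 h, and at both times they overlapped those with DMSO. Compared directly in Ahr+/+, Rpl21-ps6 was higher with BaP than with I3C at 3 h (log2 fold change 2.27 ± 0.39 SE, edgeR, adjusted p = 0.00163) and at 20 h (2.44 ± 0.41 SE, adjusted p = 1.64e-04). It was the only member called in the comparison of the ligands, beside 0.110 % of all genes higher and 0 % lower at 3 h and 0.282 % and 0 % at 20 h. At 3 h the call was lost without BaP replicate 3 or I3C replicate 1 or 2 (0 members called) and 2 members were called without BaP replicate 2, and at 20 h 3 and 2 members were called without BaP replicates 2 and 4. With the replicate number as a block, 3 members were called at each time.

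Rpl10-ps2 was the other member called lower with I3C at both times in Ahr+/+. Its parent encodes a large-subunit protein needed for the subunits to join. It had 3.65, 3.68, 2.91 and 3.49 CPM with DMSO and 1.40, 1.08, 1.284 and 0.838 CPM with I3C at 3 h (log2 fold change −1.60 ± 0.31 SE, edgeR, adjusted p = 0.00511). At 20 h it had 2.47, 2.02, 2.83 and 3.43 CPM against 0.885, 0.661, 0.942 and 0.865 CPM (−1.69 ± 0.29 SE, adjusted p = 2.38e-04). Neither pair of groups overlapped. The parent Rpl10 was 664, 677, 720 and 677 CPM with DMSO and 696, 690, 765 and 756 CPM with I3C at 3 h, so its values lay slightly higher and overlapped. Rpl19-ps12 completed the 3 called at 3 h, with 2.53, 2.21, 1.80 and 3.30 CPM against 0.515, 0.700, 0.802 and 0.942 CPM (−1.71 ± 0.35 SE, edgeR, adjusted p = 0.00907). The parent Rpl19 had 668, 656, 690 and 669 CPM against 693, 702, 723 and 760 CPM, with every I3C library above every DMSO library and no call.

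The other members called at 20 h in Ahr+/+ were Rpl31-ps16 (log2 fold change −1.72 ± 0.39 SE), Rpl19-ps1 (−1.55 ± 0.32), Rpl13-ps3 (−1.27 ± 0.28) and Rps15a-ps7 (−1.11 ± 0.23), with edgeR adjusted p values from 0.00352 to 0.00938. Their parents Rpl31, Rpl19, Rpl13 and Rps15a changed by −0.12, −0.08, −0.17 and −0.04 on the log2 scale and were not called. Set against the counts of their own parent in the same libraries, the log2 ratio of I3C to DMSO was −2.42 and −2.56 for Rpl21-ps6 and −1.66 and −1.60 for Rpl10-ps2 in Ahr+/+ at 3 h and 20 h. In Ahr+/+, each call other than those of Rpl21-ps6 and that of Rpl10-ps2 at 20 h was lost when some single library was left out. At 3 h in Ahr+/+, leaving out any of the 4 I3C libraries or DMSO replicate 1, 2 or 4 left 1 call, which was Rpl21-ps6. At 20 h in Ahr+/+, leaving out I3C replicate 2, 3 or 4 or DMSO replicate 3 or 4 left 2, Rpl10-ps2 and Rpl21-ps6. In Ahr-/- at 20 h, 0 were left without I3C replicate 2, 3 or 4 or DMSO replicate 1 or 2, and 3 were called without I3C replicate 1. With the replicate number as a block 11 were called at 3 h and 11 at 20 h in Ahr+/+, and 1 and 4 in Ahr-/-.

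Members were also compared by whether the groups overlapped, called members included. A negative value with I3C was found for 102 and 119 of 140 members in Ahr+/+ at 3 h and 20 h. Of all genes tested, 37.5 and 48.5 % were negative there. In Ahr-/- it was 97 and 103 members, beside 44.9 and 49.9 % of all genes. All 4 I3C libraries lay below all 4 DMSO libraries for 50 of 140 members in Ahr+/+ at 3 h, beside 2.64 % of all genes, and for 47 at 20 h, beside 3.66 %. In Ahr-/- this held for 23 members at 3 h, beside 1.87 % of all genes, and for 6 at 20 h, beside 1.73 %. In the opposite direction, with all 4 I3C libraries above, there were 1 and 3 members at 3 h in Ahr+/+ and Ahr-/-, beside 3.50 % and 2.38 % of all genes, and 0 at 20 h in either, beside 1.92 % and 1.91 %. The median log2 fold change of the members with I3C was −0.62 and −0.58 in Ahr+/+ at 3 h and 20 h and −0.47 and −0.44 in Ahr-/-, and the median of all genes tested was 0.03, 0.00, 0.02 and 0. The 78 cytosolic ribosomal protein genes had medians of 0.06, −0.11, 0.16 and 0.07.

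The size of the I3C difference went with divergence from the parent. In Ahr+/+ at 3 h the median log2 fold change was −1.31 for the 15 members less than 95 % identical to the parent, −0.94 for the 34 from 95 to below 98 %, −0.63 for the 37 from 98 to below 99 % and −0.06 for the 53 tested with 99 to 100 %. In the edgeR fit of all libraries the other 3 comparisons with I3C had the same order. Those medians were −1.21, −0.73, −0.52 and 0.08 in Ahr-/- at 3 h, −1.32, −0.90, −0.60 and −0.22 in Ahr+/+ at 20 h and −0.67, −0.62, −0.40 and −0.05 in Ahr-/- at 20 h.  On variance-stabilized values fitted with limma the difference was smaller, and over all alternatives the median of the members below 95 % at 3 h in Ahr+/+ lay between −1.41 and −0.36. In Ahr-/- at 20 h the first 2 classes were not ordered under every alternative, since the median of the members below 95 % reached −0.22 where that of the next class was never above −0.27, and reached −0.46 without single libraries where that of the next class was never above −0.49. Comparisons without ligand or hk S.E. also went with divergence in part. From 3 h to 20 h in Ahr+/+ the medians were 0.65, 0.35, 0.34 and 0.20, and between genotypes at 3 h 0.45, 0.28, 0.32 and 0.08. Both used unactivated Ahr+/+ replicate 4 at 3 h, which was low for members below 95 %. From 3 h to 20 h in Ahr-/- the medians were 0.26, 0.27, 0.10 and 0.05, and between genotypes at 20 h 0.10, 0.08, 0.11 and −0.03. Between genotypes with hk S.E., where no unactivated library was used, they were 0.40, 0.22, 0.38 and 0.11 at 3 h. At 20 h with hk S.E. they were 0.25, 0.29, 0.36 and 0.16. The comparison at 3 h used Ahr-/- replicate 2 with hk S.E., which was high for members below 95 %. No test was made of any such order, because the members and classes were chosen with results of these data known.

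The ends of the range of identity were also compared. The 14 members identical to the parent over the aligned bases were compared with I3C at 3 h in Ahr+/+. Their log2 fold change ran from −1.278 (Rpl10-ps3) to 0.41, and the lowest of the others was −0.14. For Rpl10-ps3, 95.7 % of windows occur in Rpl10, so not all of its length matches the parent. At 20 h in Ahr+/+ the identical members ran from −0.72 (Rps13-ps2) to 0.24 with a median of −0.11. Rpl10-ps3, Rps13-ps2 and the members named next were chosen after their values were seen. Among the 15 most divergent members, 12 had a negative value with I3C at that time. The other 3 did not, with Rplp0-ps1 at 1.18, Rps2-ps9 at 0.36 and Rps19-ps10 at 0.04, but none of them had more than 6 counts in any of these 8 libraries. Members were also split by level into sets of equal size. Among the lowest of 3 equal sets (0.135 to 0.845 CPM) the medians of the 4 classes at 3 h in Ahr+/+ were −1.26, −0.69, −0.53 and −0.17, and in the middle set −1.49, −0.98, −0.65 and −0.32. The highest set held no member below 95 %, and its 3 medians were −0.67, −0.63 and 0.06, so the order was present in each set. In the other I3C comparisons the order was present in the middle set but not throughout. The medians of the lowest set were −0.71, −0.94, −0.18 and −0.51 in Ahr+/+ at 20 h and −0.67, −0.74, −0.16 and −0.45 in Ahr-/- at 20 h. Those of the highest set were −0.45, −0.56 and 0.12 in Ahr-/- at 3 h. At 20 h the highest set had −0.50, −0.63 and −0.19 in Ahr+/+ and −0.39, −0.40 and −0.003 in Ahr-/-. The largest fitted value, for Rpl31-ps1 at 3 h in Ahr+/+, rested on 1, 7, 4 and 6 counts with DMSO and 0 in each I3C library, so no fold is given.

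**Figure D2:**
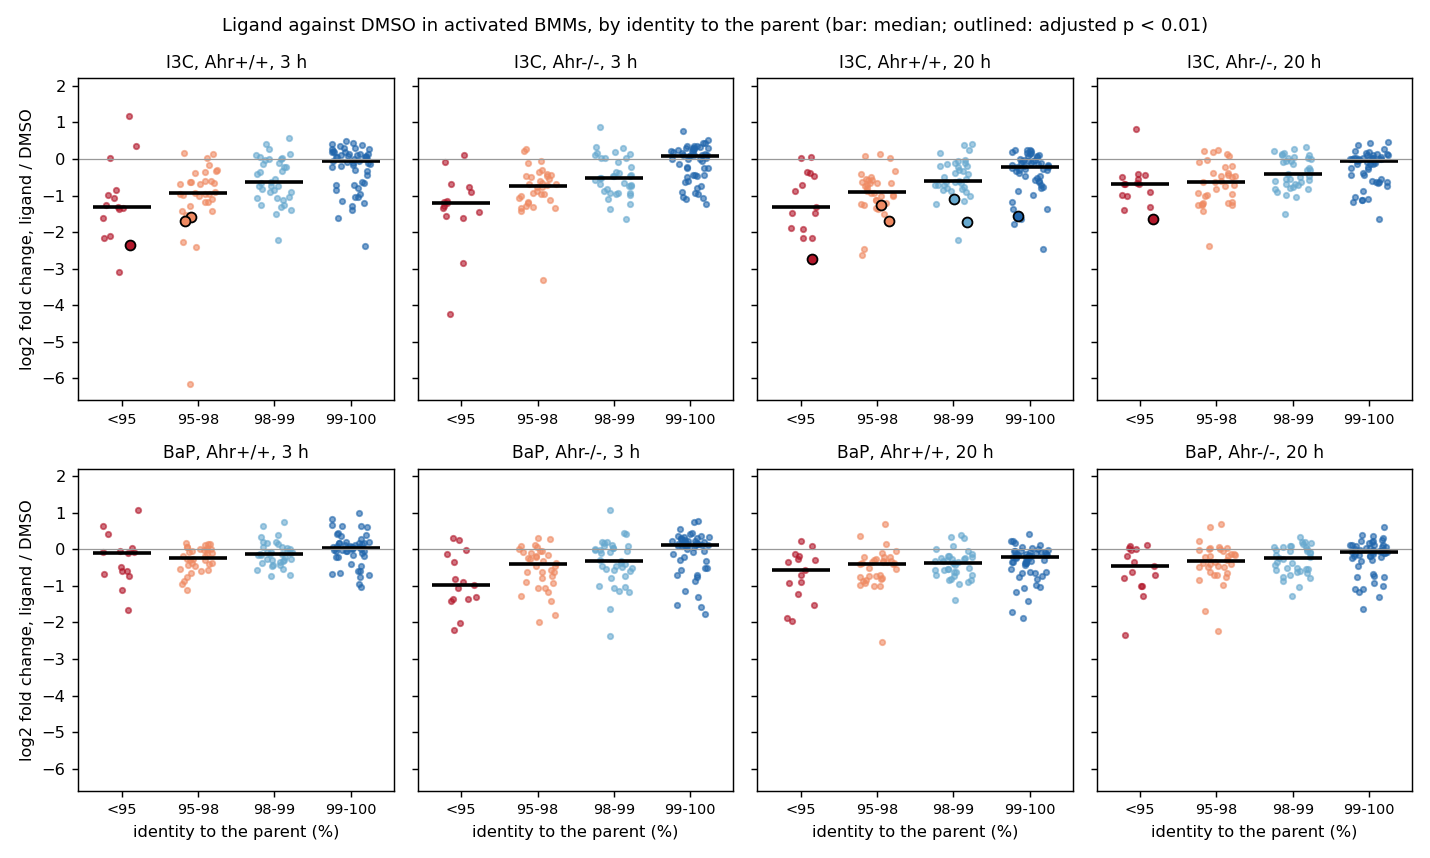
Log2 fold change of each tested member, ligand against DMSO in activated BMMs (y axis), by identity to the parent in percent (x axis), for I3C (top) and BaP (bottom) in each genotype and time, with bars for medians and outlined points for members called at adjusted p below 0.01. The I3C medians rise from −1.31 below 95 % to −0.06 at 99 to 100 % in Ahr+/+ at 3 h, and the other 3 I3C panels have the same order.

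The summed counts of a class, per 1000 counts of cytosolic ribosomal protein genes, showed the I3C difference library by library. For members below 95 % identity in Ahr+/+ at 3 h the sums were 0.421, 0.433, 0.372 and 0.439 with DMSO, 0.290, 0.223, 0.287 and 0.474 with BaP and 0.135, 0.157, 0.157 and 0.172 with I3C. The I3C libraries lay below each of these DMSO and BaP libraries, and their mean was 0.373 times that of DMSO. Replicate 4 of the Ahr+/+ libraries without hk S.E. at 3 h had 0.149, within the range of the I3C libraries. In Ahr-/- at 3 h the sums were 0.519, 0.863, 0.485 and 0.461 with DMSO and 0.257, 0.234, 0.242 and 0.205 with I3C, a ratio of means of 0.403. At 20 h the ratios were 0.507 in Ahr+/+ and 0.550 in Ahr-/-, and in both genotypes all 4 I3C libraries lay below all 4 DMSO libraries.

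The I3C sum of the next class, 95 to below 98 % identity, was 0.543 and 0.571 times that of DMSO at 3 h in Ahr+/+ and Ahr-/-, and 0.651 and 0.651 times at 20 h, with no overlap in any of the 4. For 99 to 100 % identity the ratios were 0.932 to 0.948. In bulk RNA, fewer cells of a type and less RNA per cell cannot be told apart. Library identifiers from the labels fall into series. Within the series shared by the groups, the ratio for members below 95 % at 3 h in Ahr+/+ was 0.382 (3 I3C and 2 DMSO libraries) and in Ahr-/- 0.404 (3 and 4), and at 20 h each genotype's activated groups came from 1 series. At 3 h in Ahr+/+, pairs aligned to several places were 13.39, 13.55, 13.23 and 13.61 % with I3C and 13.75, 13.88, 13.63 and 14.14 % with DMSO. Every I3C library lay below every DMSO library in this measure there, and in the other I3C comparisons the groups overlapped. Low-quality pairs were 1.66 ± 1.09 % with I3C and 1.31 ± 0.119 % with DMSO at 3 h in Ahr+/+ (SD, n = 4), and pairs on no annotated gene were 3.94 ± 0.143 % and 4.15 ± 0.280 %. In the other I3C comparisons, pairs on no annotated gene were fewer with I3C than with DMSO in every same-numbered pair of libraries. In Ahr-/- at 3 h they were 5.10, 4.88, 4.35 and 4.40 % with I3C and 5.92, 5.11, 5.13 and 4.97 % with DMSO. The part of these measures in the difference was not tested beyond a fit with low-quality pairs as a covariate. In that fit, 2 and 0 members were called with I3C at 3 h in Ahr+/+ and Ahr-/-, and 6 and 2 at 20 h.

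**Figure D3:**
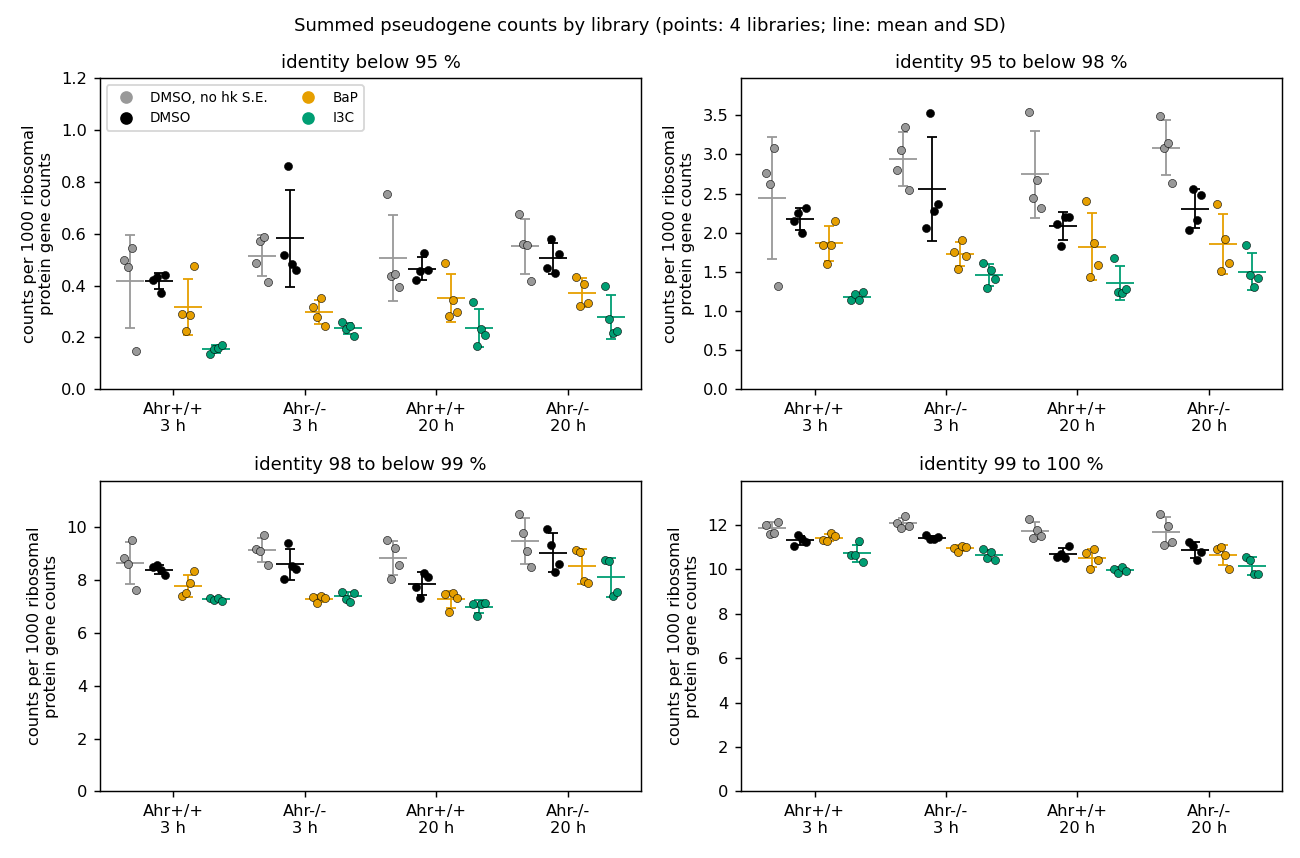
Summed counts of the members of each identity class per 1000 counts of cytosolic ribosomal protein genes (y axes, from 0) in 16 groups, with points for the 4 libraries and a line for mean and SD. In the class below 95 % the I3C libraries at 3 h in Ahr+/+ lie at 0.135 to 0.172 and the DMSO libraries with hk S.E. at 0.372 to 0.439, and in the class of 99 to 100 % the groups are close.

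The position of a member in the genome was compared in the same way. With I3C at 3 h in Ahr+/+ the median log2 fold change was −0.72 for the 98 tested members outside coding genes, −0.27 for the 14 inside a coding gene on the same strand and −0.10 for the 28 opposite one. The median identity of these sets was 98.4, 99 and 99 %. Other pseudogenes had smaller median changes than the members. Of these, 145 tested genes had a -ps symbol not named for a ribosomal protein. Their I3C medians at 3 h and 20 h were −0.08 and −0.07 in Ahr+/+ and −0.03 and −0.09 in Ahr-/-. The 1078 other processed pseudogenes had −0.36 and −0.34 in Ahr+/+ and −0.37 and −0.26 in Ahr-/-. Negative values were found for 802 and 818 of them in Ahr+/+ and for 827 and 789 in Ahr-/-. By identity class, the other -ps genes had I3C medians at 3 h of −0.20, −0.38, −0.12 and −0.01 in Ahr+/+. In Ahr-/- these were −0.31, −0.41, 0.04 and 0.04. Falls among diverged copies were thus not particular to the members. Of the genes called lower with I3C in Ahr+/+ at 3 h, 17 of 17 were annotated as processed pseudogenes, 3 of them members. At 20 h it was 33 of 67 in Ahr+/+ and 14 of 30 in Ahr-/-, where processed pseudogenes made up 9.60 % of the genes tested.

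With BaP, edgeR called 0 members in each of the 4 comparisons with DMSO. All genes called were 0.0482 % in Ahr+/+ at 3 h, 0.0275 % in Ahr-/- at 3 h, 0.234 % in Ahr+/+ at 20 h and 0.0138 % in Ahr-/- at 20 h. At an unadjusted p under 0.05 there were 10, 33, 38 and 25 members, DESeq2 called 0, 2, 2 and 1, limma 0, 1, 0 and 0, and the fit with the replicate block 0, 1, 6 and 1. All 4 BaP libraries lay below all 4 DMSO libraries for 2 members in Ahr+/+ at 3 h, beside 1.73 % of all genes, for 20 in Ahr-/- at 3 h, beside 1.38 %, for 18 in Ahr+/+ at 20 h, beside 5.01 %, and for 7 in Ahr-/- at 20 h, beside 0.750 %. In the opposite direction there were 4 in Ahr+/+ at 3 h, beside 2.18 % of all genes, 3 in Ahr-/- at 3 h, beside 1.42 %, and 0 at 20 h in either genotype, beside 4.03 % and 0.413 %. The medians by identity class, from the most divergent to the least, were −0.09, −0.23, −0.13 and 0.04 in Ahr+/+ at 3 h and −0.99, −0.42, −0.32 and 0.11 in Ahr-/- at 3 h, and at 20 h −0.58, −0.40, −0.38 and −0.21 in Ahr+/+ and −0.45, −0.32, −0.25 and −0.06 in Ahr-/-. The Ahr-/- DMSO group at 3 h, against which both ligands were set, held 1 library with a sum of 0.863 for members below 95 % where the others had 0.461 to 0.519. The BaP libraries there lay at 0.244 to 0.352, below all 4. The test of the difference between genotypes called 0 members for BaP at 3 h and 0 at 20 h, beside 0.0138 % and 0 % of all genes, with 6 and 3 at an unadjusted p under 0.05 in edgeR and 0 called by DESeq2 or limma.

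Both members and parents were called lower after 20 h of hk S.E. in Ahr+/+, but the share of members called was below that of all genes. After 3 h, 0 members were called in Ahr+/+ and 0 in Ahr-/-, although 56.6 % and 57.3 % of all genes were. At an unadjusted p under 0.05 edgeR had 4 and 6, DESeq2 called 0 and 1 and limma 1 and 0. The members' median log2 fold change was 0.16 and 0.12. In Ahr+/+, 1 member was called without activated replicate 1 or without unactivated replicate 4 and 2 without unactivated replicate 3, and in Ahr-/- 1 without activated replicate 1, 3 or 4 or unactivated replicate 2 and 1 with the replicate block.

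After 20 h, 28 of 140 members were called lower and 0 higher in Ahr+/+, beside 28.7 % of all genes lower and 29.9 % higher. The share of members called lower was thus below that of all genes. A negative value was found for 127 of 140, beside 50.0 % of all genes, and the members' median was −0.53. The parents of 21 of the 28 were called as well, and all 28 had the sign of the parent. The 28 came from 13 parents, 7 of them from Rpsa, a small-subunit protein also known as the laminin receptor, and 6 from Rpl31. Of the 78 ribosomal protein genes, 34 fell and 0 rose, with a median of −0.34. Without activated replicate 1 or 2, 16 and 13 members were called.

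Rpl10a-ps1, the identical copy shown above, had 10.1, 10.1, 8.30 and 10.5 CPM without and 4.63, 5.27, 4.18 and 5.60 CPM with 20 h of hk S.E. in Ahr+/+ (log2 fold change −0.98 ± 0.13 SE, edgeR, adjusted p = 1.79e-09). Its parent Rpl10a had 199, 188, 173 and 192 CPM without and 83.7, 92.1, 84.5 and 103 CPM with hk S.E. (−1.05 ± 0.18 SE). Both pairs of groups were separate, and the difference between the 2 changes was smaller than either SE. The parent and this copy cannot be distinguished by any read-length window. Rps16-ps2, identical to the gene of a small-subunit protein, had 19.7, 19.3, 19.1 and 22.3 CPM without and 10.8, 12.5, 11.3 and 12.3 CPM with hk S.E. (−0.78 ± 0.14 SE, edgeR, adjusted p = 1.77e-06), beside −0.82 ± 0.19 for Rps16. Rpl36a-ps2, identical to its parent and lying inside Ddah1 on the same strand, had 14.4, 12.4, 14.9 and 18 CPM without and 5.84, 6.09, 8.33 and 8.03 CPM with hk S.E. (−1.08 ± 0.21 SE, adjusted p = 1.38e-05), beside −1.12 ± 0.18 for Rpl36a.

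Several copies that differ from the parent had a larger fitted change than the parent, a difference that was not tested. Rpsa-ps2, 98.8 % identical, had 11.8, 8.48, 9.08 and 10.2 CPM without and 3.55, 2.95, 4.56 and 4.11 CPM with hk S.E. (log2 fold change −1.38 ± 0.31 SE, edgeR, adjusted p = 1.13e-04), beside −0.78 ± 0.15 for Rpsa. Rpl31-ps10 had the largest change, from 2.65, 0.628, 0.461 and 0.718 to 0.269, 0.0747, 0.314 and 0.362 CPM (−2.01 ± 0.54 SE, adjusted p = 0.00101), in which unactivated replicate 1 stood apart. Rpsa-ps11 and Rpl36a-ps1 had −1.29 ± 0.40 and −1.26 ± 0.35 SE. Of all tested members, 113 of 140 had a lower log2 fold change than the parent, with a median difference to the parent of −0.22. By identity class the medians were −0.52, −0.72, −0.47 and −0.41, from the most divergent to the least, so the order seen with I3C was not present.

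In Ahr-/- after 20 h, 8 members were called lower and 0 higher, beside 26.0 % of all genes lower and 28.3 % higher. The median was −0.26, and 114 of 140 were negative, beside 48.8 % of all genes. Rpl30-ps1 (log2 fold change −1.42 ± 0.34 SE), Rpsa-ps9 (−1.19 ± 0.30), Rpl31-ps16 (−1.07 ± 0.33), Rpl18-ps1 (−1.03 ± 0.29) and Rpsa-ps1 (−1.01 ± 0.29) changed most, with edgeR adjusted p values from 2.33e-04 to 0.00381. The sign of the parent was the same for 6 of the 8, and the parents' median over all tested members was −0.04. The parent of 1 of the 8 was called, Rps16, whose identical copy Rps16-ps2 went from 19.2, 19.0, 18.5 and 16.8 to 13.5, 17.0, 10.1 and 11.3 CPM (−0.50 ± 0.14 SE, adjusted p = 0.00117). Activated replicate 2 of this gene lay just above the lowest unactivated library. The count was 19 without activated replicate 2, 13 and 14 without unactivated replicates 3 and 4, and 4, 5 and 5 without activated replicates 3 and 4 and unactivated replicate 1, and it was 20 with the replicate block. The test of the difference in activation between genotypes called 0 members at 3 h, beside 0.0138 % of all genes, and 0 at 20 h, beside 4.42 %. At an unadjusted p under 0.05 these were 0 and 8 in edgeR, DESeq2 called 0 and 1, limma 0 and 0, and the block 0 and 2. At 20 h, 1 member was called without Ahr-/- activated replicate 1 or 3, Ahr-/- unactivated replicate 1, Ahr+/+ activated replicate 4 or Ahr+/+ unactivated replicate 3.

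**Figure D4:**
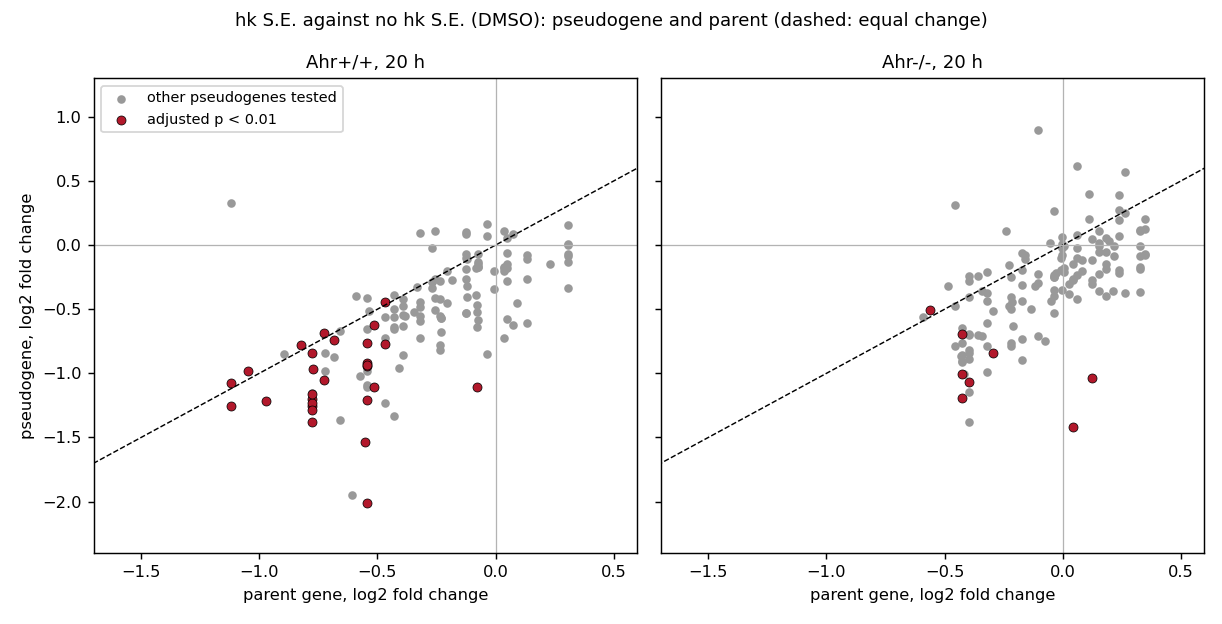
Log2 fold change after 20 h of hk S.E. of each tested member (y axis) against that of its parent (x axis) in Ahr+/+ (left) and Ahr-/- (right), with called members in red and a dashed line of equal change. In Ahr+/+ the 28 called members have negative values for both, and 113 of 140 members lie below the line.

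The comparison of times used the same activated libraries at 20 h. From 3 h to 20 h of hk S.E., 13 members were called lower and 0 higher in Ahr+/+, beside 26.4 % of all genes lower and 33.0 % higher, and the parents of all 13 were called with the same sign. Rpl36a-ps1 (log2 fold change −1.18 ± 0.38 SE), Rpl36a-ps2 (−1.10 ± 0.22), Rps26-ps1 (−1.06 ± 0.35), Rpl10a-ps1 (−0.97 ± 0.13) and Rpsa-ps1 (−0.91 ± 0.31) changed most, with edgeR adjusted p values of 0.00771 or less. In Ahr-/-, 5 were called lower and 0 higher, beside 24.3 % and 31.7 %. These were Rpl31-ps10 (−1.78 ± 0.51 SE), Rps12-ps3 (−1.01 ± 0.22), Rps4x-ps (−0.82 ± 0.20), Rps16-ps2 (−0.70 ± 0.14) and Rpl10a-ps1 (−0.47 ± 0.13). All 4 Ahr-/- libraries with hk S.E. at 3 h carried identifiers of 1 series and all 4 at 20 h those of another, so time and series cannot be told apart there. With the series as a covariate 5 were called, and the members' median was −0.12 in place of −0.31, and that of all genes 0.10 in place of 0.09. Without Ahr+/+ replicate 2 at 20 h 8 were called, and without Ahr-/- replicates 2 and 3 at 3 h 3 and 8. With the replicate block 23 were called in Ahr+/+. Without hk S.E., 0 were called in Ahr+/+, beside 6.07 % of all genes, and 0 in Ahr-/-, beside 6.98 %, with 18 and 9 at an unadjusted p under 0.05 in edgeR, 0 and 0 called by DESeq2, 1 and 0 by limma and 1 and 0 with the block.

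Few members were called between the genotypes, but most had a higher fitted level in Ahr-/-. A positive value was found for 111 and 84 of 140 members without hk S.E. at 3 h and 20 h and for 102 and 114 with hk S.E. Of all genes tested, 49.2, 51.4, 46.8 and 48.2 % had a negative value in the same order. The members' medians were 0.24, 0.05, 0.22 and 0.28, and those of the ribosomal protein genes 0.01, −0.003, −0.02 and 0.23. Without hk S.E., 0 members were called at 3 h, beside 1.21 % of all genes, and 0 at 20 h, beside 0.702 %, and after 3 h of hk S.E. 0, beside 2.83 %. At an unadjusted p under 0.05 edgeR had 14, 10 and 19, and DESeq2 and limma called 0 in each. After 20 h of hk S.E., 4 were higher in Ahr-/- and 0 lower, beside 5.06 % of all genes higher and 7.39 % lower. Rpl14-ps1, the most abundant member, had 50.0, 56.1, 76.6 and 84.2 CPM in Ahr+/+ and 165, 110, 83.1 and 77.3 CPM in Ahr-/- (log2 fold change 0.71 ± 0.20 SE, edgeR, adjusted p = 0.00669). The groups overlapped, and Ahr-/- replicates 1 and 2 were the highest. Its parent Rpl14 had 134, 139, 161 and 184 CPM against 228, 255, 165 and 188 CPM and was also called higher (0.43 ± 0.10 SE). Rpl3-ps1 had 15.3, 20.5, 18.4 and 23.8 CPM against 33.5, 30.1, 21 and 25.5 CPM (0.49 ± 0.13 SE), Rpl36a-ps2 differed by 0.74 ± 0.21 and Rpl10a-ps1 by 0.47 ± 0.13.

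These 4 calls rested on few libraries. Without Ahr-/- replicate 2 or Ahr+/+ replicate 1, 0 were called, without Ahr-/- replicate 1 it was 1, and without Ahr+/+ replicate 2 or 3 it was 2. The Ahr+/+ libraries of this comparison carried identifiers of 1 series and the Ahr-/- libraries those of another, so the series and the genotype cannot be told apart, and 0 were called with the series as a covariate. Rps19-ps6, Rpl17-ps3, Rpl31-ps17 and Rpl31-ps1, on chromosome 12, where Ahr lies, had edgeR adjusted p values of 0.159 or more in all 4 genotype comparisons.

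Over all libraries the members took 17.9 to 27.2 counts per 1000 counts of ribosomal protein genes. The mean was 23.4 ± 1.55 (SD, n = 4) in Ahr+/+ without hk S.E. at 3 h, 22.4 ± 0.337 with hk S.E., 21.4 ± 0.850 with BaP and 19.4 ± 0.395 with I3C. In Ahr-/- the same groups had 24.7 ± 1.03, 23.2 ± 1.37, 20.3 ± 0.435 and 19.8 ± 0.406. At 20 h they were 23.9 ± 1.69, 21.2 ± 0.700, 20.0 ± 1.15 and 18.6 ± 0.514 in Ahr+/+ and 24.9 ± 1.80, 22.8 ± 1.08, 21.5 ± 1.29 and 20.1 ± 1.41 in Ahr-/-. The I3C group had the lowest mean in each of the 4 sets. In Ahr+/+ at both times and in Ahr-/- at 3 h, its 4 libraries lay below the 4 of DMSO with hk S.E. One unactivated Ahr+/+ library at 3 h, replicate 4, had 0.149 for members below 95 % identity, where the other 3 had 0.472 to 0.544, and 4.44 % of its pairs were set aside for low quality.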

How the data were processed

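Per the labels, total RNA of the BMMs was sequenced as stranded paired-end mRNA libraries of 126 bases per read. The deposited count files hold read pairs per gene, which the authors made with bcl2fastq 2.19.0.316, HISAT2 2.1.0 on mm10 and HTSeq 0.9.1 (strict intersection, reverse strand, exons of GENCODE M22), and 5 entries that name no gene were kept out of library sizes. The deposited log2 table holds the authors' variance-stabilized values (DESeq2) of 14549 genes and served only as an alternative. Members and lists were chosen with earlier results of these data known.

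Groups came from the labels. Counts were fitted with edgeR 4.0.16 (quasi-likelihood, TMM, filterByExpr with a minimum of 10, 16 group means, 14537 genes, 48 residual degrees of freedom) in R 4.3.3, with Benjamini-Hochberg adjustment over all genes and a threshold of 0.01 in 28 comparisons. DESeq2 1.42.0 and limma 3.58.1 (VST values) were alternatives. On simulated counts for I3C at 3 h in Ahr+/+ (14537 genes), 74 % of genes changed by 1 on the log2 scale were called. So were 88 % of those lowered by 2, 84 % of those raised by 2 and 1 of 14337 unchanged genes. The changed genes were drawn at random from all genes tested, so these shares need not hold for members of low level. Identity, read-length windows and sequences were taken from GENCODE M21, which matched 55394 of 55487 genes. Replicate numbers were taken to mark the 4 mice of a genotype, from the study's methods; same-numbered deviations correlated above 0.1 in 14 of 24 Ahr+/+ pairs (0.0347 to 0.255) and 23 of 24 Ahr-/- pairs (−0.173 to 0.643). No 2 libraries of a group agreed within sampling noise (lowest chi-square per degree of freedom 3.90, 96 pairs). The depth was 12152496 to 233047331 counts, so members near the minimum rest on few reads. Named were the 10 most abundant members, up to 5 called members with the largest change per direction and comparison, those called most often, their parents, those at the edge of the rule, those not tested and those on chromosome 12. Values of a few genes are not reported here.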

Additional observations from a re-analysis of the deposited data

Results flagged for a closer look

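In groups of 4 libraries, 5 of 92 sets of values held a library far from the other 3 by Dixon's test, about the 1 in 20 that chance gives. In Ahr+/+ BMMs with hk S.E. at 3 h, replicate 2 had 22.9 member counts per 1000 ribosomal protein gene counts, and the others 22.1 to 22.2. For members below 95 % identity, Ahr-/- replicate 2 with hk S.E. at 3 h had 0.863 per 1000, with the others at 0.461 to 0.519. In the same class, unactivated Ahr+/+ replicate 1 at 20 h had 0.755, with the others at 0.393 to 0.445. For members from 95 to below 98 % identity, I3C replicate 1 in Ahr+/+ at 20 h had 1.67, with the others at 1.23 to 1.281. Rpl31-ps10 stood at 2.65 CPM in unactivated Ahr+/+ replicate 1 at 20 h, with the others at 0.461 to 0.718.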

How the results depend on the processing

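Of the 35 called values examined (up to 5 members per comparison and direction), none reversed its direction under any alternative, and the number of members called changed as follows. The cause of these changes was not tested.

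At a threshold of 0.05, hk S.E. gave 3 and 1 calls at 3 h (Ahr+/+ and Ahr-/-) and 49 and 25 at 20 h. I3C gave 10 in Ahr+/+ and 1 in Ahr-/- at 3 h and 2 in Ahr-/- at 20 h, and BaP 1 in Ahr-/- at 3 h and 2 and 1 at 20 h. Genotype gave 1 and 8 with hk S.E. at 3 h and 20 h, time 3 in unactivated Ahr+/+ and 26 and 17 with hk S.E., the ligands against each other 3 and 4, and the interaction of activation at 20 h 2. DESeq2 called 1 and 15 with hk S.E. in Ahr-/- at 3 h and 20 h, 8 and 1 with I3C at 3 h, 2 with I3C in Ahr-/- at 20 h, 2 with BaP in Ahr-/- at 3 h, 2 and 1 with BaP at 20 h, 20 over time with hk S.E. in Ahr+/+, 4 and 3 between ligands and 1 in the activation interaction at 20 h.

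Limma called 1 with hk S.E. in Ahr+/+ at 3 h and 13 in Ahr-/- at 20 h, 7 and 1 with I3C at 3 h and 2 in Ahr+/+ at 20 h, 1 with BaP in Ahr-/- at 3 h, 1 for genotype at 20 h with hk S.E., 1 and 21 over time in Ahr+/+ without and with hk S.E. and 3 between ligands at 3 h. Fits of only the groups compared called 3 and 5 with hk S.E. (Ahr+/+ at 3 h and Ahr-/- at 20 h), 11 and 0 with I3C (Ahr+/+ at 3 h and Ahr-/- at 20 h), 1 with BaP in Ahr+/+ at 20 h, 0 for genotype at 20 h, 23 and 2 over time with hk S.E. and 3 and 0 between ligands. With other size factors (RLE) it was 1 and 13 with hk S.E. in Ahr-/- and 2 with I3C in Ahr-/- at 20 h. The identifier series as a covariate gave 1 with hk S.E. in Ahr-/- at 3 h, 0 for genotype at 20 h and 7 over time in Ahr+/+. Low-quality pairs as a covariate gave 1 with hk S.E. in Ahr-/- at 3 h, 1 with BaP and 2 with I3C in Ahr-/- at 20 h and 2 and 3 between ligands. With no filter there were 2 with I3C in Ahr-/- at 20 h and 2 between ligands at 3 h.

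With the replicate block, hk S.E. in Ahr-/- gave 1 and 20, I3C 11 and 1 at 3 h and 11 and 4 at 20 h, BaP 1 in Ahr-/- at 3 h and 6 and 1 at 20 h, time 1 and 23 in Ahr+/+, the ligands 3 and 3 and the activation interaction 2 at 20 h. The block moved no other count by over 1.5 times. No paired analysis was possible for the genotypes because their mice differ.

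Leaving out 1 library gave 0 to 2 and 0 to 1 calls with hk S.E. at 3 h, 13 to 31 and 4 to 19 at 20 h, 1 to 3 and 2 to 7 with I3C in Ahr+/+, 0 to 3 in Ahr-/- at 20 h, 0 to 4 for genotype with hk S.E. at 20 h, 8 to 14 and 3 to 8 over time with hk S.E., 0 to 2 and 1 to 3 between ligands and 0 to 1 for the interaction at 20 h. Rpl21-ps6 stayed called with I3C in Ahr+/+ at both times in each of these. Members near the minimum of 10 counts rest on few reads, which limits their fold changes.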
